A study of Mus musculus with 4 samples.

Results

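The MHC class II antigen presentation genes were examined in endothelial cells (ECs) sorted from the brain parenchyma and from the dura mater, the outer layer of the meninges. The genes were taken by symbol. They were the 3 chain genes H2-Aa, H2-Ab1 and H2-Eb1, the invariant chain gene Cd74, the chain genes H2-DMa and H2-DMb1 of the peptide exchange factor H2-DM, and the transactivator Ciita. Ptprc, which encodes the pan-leukocyte protein CD45, was read beside them to look for leukocytes carried through the sort. Together these are 8 of the 23282 entries in each count file, and all 8 were present. The study asked how dura mater ECs differ from brain ECs at the molecular level. It deposited 2 libraries of brain ECs and 2 of dura mater ECs, both from C57BL/6J mice aged 8 weeks with no transgene or treatment in the labels. Cells were sorted as CD31+, CD45- and TER-119-, and the brain ECs were first enriched on CD31 beads, so the tissues differed in preparation as well as origin. Neither the labels nor the methods say how many mice went into a library, so p-values measure the spread between these libraries, which may be partly technical.

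MHC class II molecules are pairs of alpha and beta chains that show peptides from taken-up proteins to CD4+ T cells. H2-Aa and H2-Ab1 encode the alpha and beta chain of I-A. H2-Eb1 encodes the beta chain of I-E, whose alpha chain gene is defective in the C57BL/6 strain, so that no I-E pair reaches the surface there. The invariant chain Cd74 holds new pairs and takes them to the endosome, and H2-DM then exchanges its remnant for antigenic peptide. Dendritic cells, B cells and macrophages carry these genes at rest. Ciita switches the whole set on, and interferon gamma can induce Ciita, and with it class II, in other cells, ECs among them. Class II promoters share an X box and a Y box at a near-fixed spacing, bound by the RFX complex and NF-Y, on which Ciita assembles.

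The promoter windows of these genes are shown because the X and Y boxes are the known shared arrangement of class II promoters. Whether this arrangement bears on the counts was not tested. RefSeq windows around each gene's start (GRCm38.p6, most of it upstream) were matched for H2-Aa, H2-Eb1, H2-DMa, H2-DMb1 and Ptprc. No window was read for H2-Ab1, Cd74 and Ciita, so their promoters are not described here. In the stretches below, read 5′ to 3′ along each gene, the capitals mark the letters GNAACT in the X box region and ATTGG, the inverted CCAAT letters of the Y box.
H2-Aa: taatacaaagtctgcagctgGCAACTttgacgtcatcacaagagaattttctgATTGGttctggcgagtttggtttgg
H2-Eb1: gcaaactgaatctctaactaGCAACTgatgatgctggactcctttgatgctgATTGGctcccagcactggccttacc
H2-DMb1: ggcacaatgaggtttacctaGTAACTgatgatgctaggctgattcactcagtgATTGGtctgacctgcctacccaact
They lie at chr17:34287847-34287924 on the minus strand, chr17:34305756-34305832 on the plus strand and chr17:34153077-34153154 on the plus strand. The letters GNAACT began 33, 32 and 33 bases before ATTGG, and ATTGG began 48, 59 and 61 bases before the RefSeq start in H2-Aa, H2-Eb1 and H2-DMb1.

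Both strands were searched in 32851 windows. ATTGG alone was common, at 37.4% of windows. The core AGCAACNG stood in 5.14%, and this core followed by ATTGG in the same orientation, with starts at most 40 bases apart, stood in 0.167%. Among the matched class II genes, H2-Eb1 alone held this pair. GNAACT, whose letters overlap that core, was chosen after the class II windows had been seen. It stood in 42.8% of windows and was followed by ATTGG within the same limit in 1.52%. With starts 32 or 33 bases apart the pair stood in 34 windows (0.103%), the 3 genes above included. That spacing was taken from these 3 genes, so the share describes the other windows and does not test them. The windows of H2-DMa and Ptprc did not hold the pair. A match is a description of letters and not a site of binding.

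The tested class II genes were counted at low levels in brain ECs and at much higher levels in dura mater ECs. Library totals ran from 13518973 to 16096203 counts, so 1 count was worth 0.0613 to 0.0756 CPM (counts per 1000000, here scaled by TMM, edgeR's trimmed mean of M-values). Summed over the 7 class II genes, the brain libraries held 96 and 103 counts and the dura mater libraries 3843 and 4168. Divided by the library total alone, these are 6.64 CPM (95% Wilson interval 5.43 to 8.10) and 7.46 CPM (6.15 to 9.04) in brain and 284 CPM (275 to 293) and 259 CPM (251 to 267) in dura mater. The intervals cover counting error only, since read counts without molecular identifiers are not independent molecules. The dura mater libraries differed from each other beyond counting error, but the gap between the tissues was far larger and they did not overlap. In sorted bulk samples, fewer cells that carry a transcript cannot be told apart from less of it per cell.

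The I-A alpha chain gene H2-Aa was counted 9 and 32 times in brain replicates 1 and 2, against 824 and 1147 times in dura mater replicates 1 and 2. That is 0.621 and 2.42 CPM against 61.4 and 70.3 CPM, or 1.52 ± 1.27 against 65.9 ± 6.23 CPM (mean ± SD, n = 2 each). The lower dura mater library stood 25.4-fold above the higher brain library. H2-Ab1, its beta chain partner, had 53 and 26 counts in brain and 747 and 692 in dura mater, with 2.81 ± 1.20 CPM against 49.0 ± 9.42 CPM. Here the lower dura mater library stood 11.6-fold above the higher brain library, the smallest such gap among the 5 genes tested. H2-Eb1 had 23 and 21 counts in brain and 972 and 776 in dura mater. Its 2 brain libraries were almost equal, both at 1.59 CPM, and its dura mater libraries had 72.5 and 47.5 CPM. All 3 chain genes were thus separated between the tissues in every library.

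Cd74, the invariant chain, had 8 and 22 counts in brain and 1108 and 1254 in dura mater. In CPM this is 1.11 ± 0.786 against 79.7 ± 4.11, and the lower dura mater library was 46.2-fold above the higher brain library. Its dura mater replicates differed by only 1.08-fold, its brain replicates by 3.01-fold on 8 and 22 counts. The gene lies on chromosome 18 from 60803848 to 60812652 on the plus strand (GRCm38, GENCODE M21). The H2 genes lie together on chromosome 17, from the start of H2-DMa at 34119541 to the end of H2-Eb1 at 34316674, so the class II genes that stood apart between the tissues did so at 2 separate places in the genome.

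**Figure D1:**
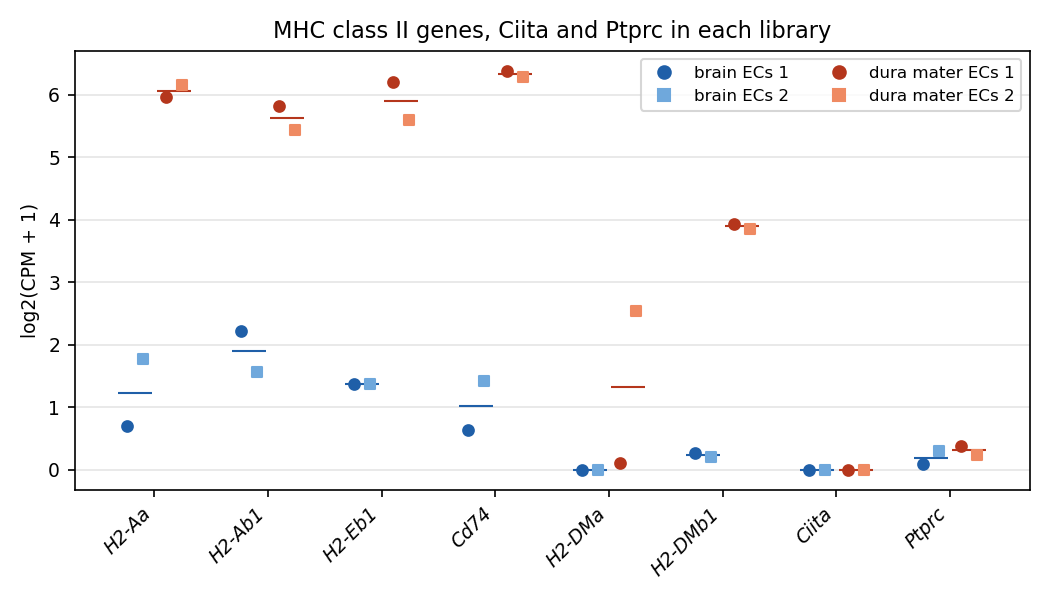
Expression of the 7 class II genes and Ptprc in each library, as log2(CPM + 1) on the vertical axis, with 1 point per library and a short line at the mean of each tissue. Both dura mater points lie above both brain points for H2-Aa, H2-Ab1, H2-Eb1, Cd74 and H2-DMb1, H2-DMa is raised in dura mater replicate 2 alone, Ciita is at 0 in all 4 libraries and Ptprc lies near 0 in all.

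The H2-DM genes differed from each other. H2-DMb1, the beta chain, had 3 and 2 counts in brain and 191 and 220 in dura mater, or 0.179 ± 0.0394 against 13.9 ± 0.542 CPM, and the ratio of pooled counts was 76.6 with an exact 95% interval of 32.6 to 237. H2-DMa, the alpha chain that H2-DM also needs, had 0 counts in both brain libraries, 1 count in dura mater replicate 1 and 79 counts in dura mater replicate 2. The alpha chain was therefore above a floor of 3 counts in 1 of 4 libraries only. Gaps of this kind between replicates of a tissue were common in these libraries. Of 10447 entries with 64 or more counts in either dura mater library, 3210 (30.7%) had 7 or fewer in the other, and in brain this held for 2572 of 8212 (31.3%). The cause of the gap in the H2-DMa values was not tested. H2-DMb1 shares 27.2% of its 50-base transcript stretches with other genes, mostly with H2-DMb2, so its counts could include reads of that near-copy, which itself was listed at 0 in all 4 libraries. H2-DMa overlaps Brd2 on the opposite strand over 10.4% of its exon bases, and whether the counting used strand is not given in the sources used here.

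Ciita had 0 counts in all 4 libraries. For counting error alone, a count of 0 allows up to 3 counts. That is 0.207 and 0.217 CPM by library total in brain and 0.222 and 0.186 CPM in dura mater. The transactivator was thus not counted in the same dura mater libraries that held 3843 and 4168 counts of the class II set. Whether its transcript was absent or lost in the libraries was not tested. Ciita lies on chromosome 16 from 10480059 to 10528418 on the plus strand.

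Ptprc, on chromosome 1 from 138062861 to 138175708 on the minus strand, had 1 and 3 counts in brain and 4 and 3 in dura mater. By library total these are 0.0691 CPM (95% Wilson interval 0.0122 to 0.392), 0.217 (0.0739 to 0.639), 0.296 (0.115 to 0.761) and 0.186 (0.0634 to 0.548). The tissues overlapped, and the pooled ratio of dura mater to brain was 1.63 with an exact 95% interval of 0.415 to 7.60, for counting error. The corresponding interval for Cd74 was 51.3 to 109 around a ratio of 73.4. Ptprc was too low to enter the test. In a fit without the filter its log2 fold change was 0.39 (SE 2.55, edgeR adjusted p = 0.994). CD45- was the sorting gate, and the Ptprc counts were at or near the floor of 3 counts in all 4 libraries.

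Across all genes, edgeR's quasi-likelihood test on 9347 genes called 57 at an adjusted p under 0.05, 40 higher and 17 lower in dura mater ECs. Genes called higher were 0.428% of those tested. None of the 5 class II genes tested was among them. The log2 fold change of dura mater over brain was 6.00 for Cd74 (SE 1.89, adjusted p = 0.400), H2-DMb1 5.46 (SE 2.90, adjusted p = 0.583), H2-Aa 5.31 (SE 2.09, adjusted p = 0.466), H2-Eb1 5.12 (SE 2.09, adjusted p = 0.466) and H2-Ab1 4.06 (SE 2.20, adjusted p = 0.597). The median over all genes tested was -0.00675. These fold changes are large and their errors are large too, and replicates of a tissue varied widely in this series, with a common biological coefficient of variation of 1.39. The filter on low counts asked for about 0.707 CPM in at least 2 libraries. H2-DMb1 reached this in the dura mater libraries alone, so it could enter the test only with higher dura mater levels, and H2-Aa and Cd74 reached it in 1 brain library beside both dura mater libraries and so also needed dura mater to be kept. H2-Ab1 and H2-Eb1 reached it in all 4 libraries, with unadjusted edgeR p of 0.112 and 0.0481. Over all 5 genes, 3 had an unadjusted p under 0.05, where 7.04% of all genes tested had one with a higher dura mater level. Both dura mater libraries stood above both brain libraries in CPM for all 5, as for 26.2% of all genes tested. Since 3 of the 5 were kept through dura mater, these 2 counts describe the genes and do not test them.

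The call depended on the test. By DESeq2, Cd74 (adjusted p = 0.00262), H2-Aa (adjusted p = 0.0252) and H2-Eb1 (adjusted p = 0.0331) were called higher in dura mater ECs. H2-Ab1 (adjusted p = 0.207) and H2-DMb1 (adjusted p = 0.364) did not pass. DESeq2 was run after the same filter on low counts, by which Cd74 and H2-Aa were kept through dura mater. The calls of Cd74 and H2-Aa thus describe these genes and do not test them. DESeq2 called 6.90% of its genes higher in dura mater. By limma-voom, none of the 5 passed. Over 12 or 13 alternatives a gene, adjusted p ran from 0.00262 to 0.799 for Cd74, from 0.0252 to 0.938 for H2-Aa, from 0.0331 to 0.995 for H2-Eb1, from 0.137 to 1 for H2-Ab1 and from 0.364 to 1 for H2-DMb1. Every fitted fold change was positive in every alternative run, as it had to be with both dura mater libraries far above both brain libraries. The lowest fold change was 3.64 for H2-Ab1 and the highest 6.81 for Cd74, on the log2 scale. The highest value, 6.81 for Cd74, came from edgeR without brain replicate 2, a fit that leaves 1 brain library. With at least 10 counts required in every library, H2-Eb1 had an adjusted p of 0.0548 and H2-Ab1 of 0.137.

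**Figure D2:**
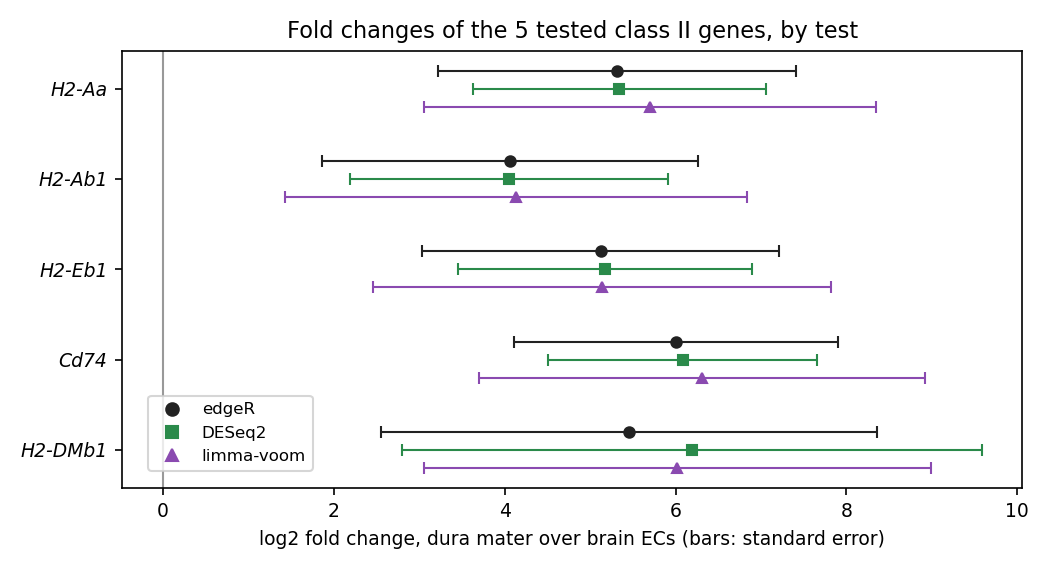
Log2 fold change of dura mater over brain ECs for the 5 class II genes tested, with 1 point and standard error bar for each of edgeR, DESeq2 and limma-voom (n = 2 libraries a tissue). All points lie to the right of 0, from 4.06 for H2-Ab1 to 6.00 for Cd74 in edgeR, and the edgeR standard errors run from 1.89 to 2.90.

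The makeup of the class II counts was compared between libraries as each gene's share of the 7-gene sum. In dura mater Cd74 took 28.8% and 30.1%, H2-Ab1 19.4% and 16.6%, and H2-DMb1 4.97% and 5.28%. The shares moved further for H2-Aa, at 21.4% and 27.5%, and H2-Eb1, at 25.3% and 18.6%. The brain shares rest on 96 and 103 counts. H2-Ab1 took 55.2% (95% Wilson interval 45.2 to 64.8) in brain replicate 1 and 25.2% (17.9 to 34.4) in brain replicate 2. H2-Aa took 9.38% and 31.1%, and Cd74 8.33% and 21.4%. The makeup of brain replicate 2 lay nearer to dura mater than that of brain replicate 1 for these 3 genes, and the Wilson intervals of the brain libraries did not overlap for H2-Ab1 and H2-Aa.

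**Figure D3:**
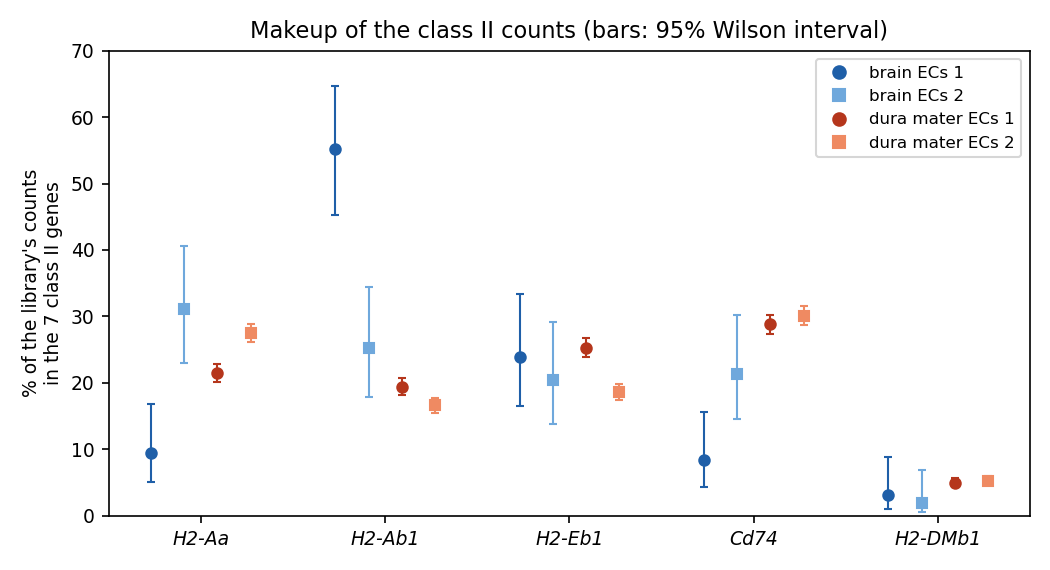
Share of each library's class II counts held by 5 of the genes, in percent, with 1 point per library and bars for the 95% Wilson interval. Cd74 and H2-DMb1 have nearly level dura mater points (28.8% and 30.1%, 4.97% and 5.28%), while H2-Ab1 ranges from 25.2% to 55.2% between the brain libraries, whose intervals are wide.

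Other genes of the pathway were read from 5 lists of 38 genes, of which 23 were tested and 7 were at 0 in all libraries. None passed in edgeR. Of the 23, 3 passed at an unadjusted edgeR p under 0.05, where 7.04% of all genes tested passed with a higher dura mater level. DESeq2 called 3, where it called 6.90% of its genes higher. By limma-voom 1 was called, where 0.428% of all genes tested were called higher. Among the other class II chains, H2-DMb2, H2-Oa and H2-Ea-ps, the defective I-E alpha gene, were at 0 in all libraries. H2-Ob, a chain of the H2-DM antagonist H2-O, had 69 counts in dura mater replicate 2 and 0 elsewhere, and H2-Eb2 had 1 count in brain replicate 2. The chain genes beyond the set were thus almost uncounted, and H2-Ob was seen in the same library as H2-DMa.

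The list of class II transcription factors held the RFX subunits, NF-Y subunits and Creb1. All 7 were tested, 4 with a positive and 3 with a negative fold change, and the median was 0.67, with none passing. Rfx5 had 4, 58, 641 and 169 counts in brain replicates 1 and 2 and dura mater replicates 1 and 2 (log2 fold change 3.56, SE 2.88, edgeR adjusted p = 0.896). Rfxank had 227, 2, 5 and 536 counts and Rfxap 447, 305, 0 and 201 in the same order. Both dura mater libraries stood above both brain libraries for Rfx5 and below both for Rfxap, and the tissues overlapped for Rfxank. Nfya, Nfyb and Nfyc, the NF-Y subunits, were counted in every library, at 248 to 1765 counts.

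The interferon gamma pathway, through which Ciita is induced, held the 3 genes of the lists that passed at an unadjusted p under 0.05. Irf1, a transcription factor induced by interferon gamma, had 6790 and 3974 counts in brain and 69265 and 39760 in dura mater. In CPM this is 384 ± 119 against 3800 ± 1930, and the log2 fold change was 3.30 (SE 0.48, edgeR adjusted p = 0.0540). It did not pass in edgeR but passed in 10 of its 13 alternatives, where adjusted p ran from 4.86e-22 to 0.0645. Leaving out any 1 of the 4 libraries brought it past the threshold, with adjusted p from 1.90e-08 to 0.0294. Irf8, a factor of myeloid and B cells that interferon gamma also induces, had 5 and 7 counts in brain and 1687 and 1527 in dura mater. In edgeR its log2 difference was 7.57 (SE 1.54, adjusted p = 0.147). It passed in 5 of 12 alternatives (adjusted p from 1.05e-06 to 0.771), among them those without brain replicate 1 (adjusted p = 0.000529) and without brain replicate 2 (adjusted p = 0.000201).

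Socs1, the feedback inhibitor of the interferon gamma receptor, had 1 and 0 counts in brain and 536 and 683 in dura mater. Its fitted log2 difference of 7.88 (SE 2.74, adjusted p = 0.466 in edgeR) depends on the prior count, and DESeq2 was the only one of 12 alternatives in which it passed (range of adjusted p 0.00325 to 0.870). By DESeq2, Irf1 (adjusted p = 2.46e-13), Irf8 (adjusted p = 1.05e-06) and Socs1 (adjusted p = 0.00325) rose in dura mater ECs. Irf1 passed the filter on low counts in all 4 libraries. Irf8 and Socs1 passed it in the dura mater libraries alone, so they could enter the test only with higher levels there. Of the signal carriers between receptor and nucleus, neither Jak1 nor Jak2 passed. For Jak1, brain replicate 2 and dura mater replicate 1 were nearly level, at 141.8 and 142.8 CPM. For Jak2 the tissues overlapped. Jak1 had 748, 1876, 1915 and 3894, and Jak2 had 736, 275, 802 and 531. The receptor chain Ifngr1 had 500, 1109, 133 and 1260 counts and Ifngr2 0, 1, 1 and 784. Nlrc5, the transactivator of class I genes and relative of Ciita, had 0, 1, 0 and 208. The list's median over 8 genes tested was 2.09, with 6 positive and 2 negative.

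**Figure D4:**
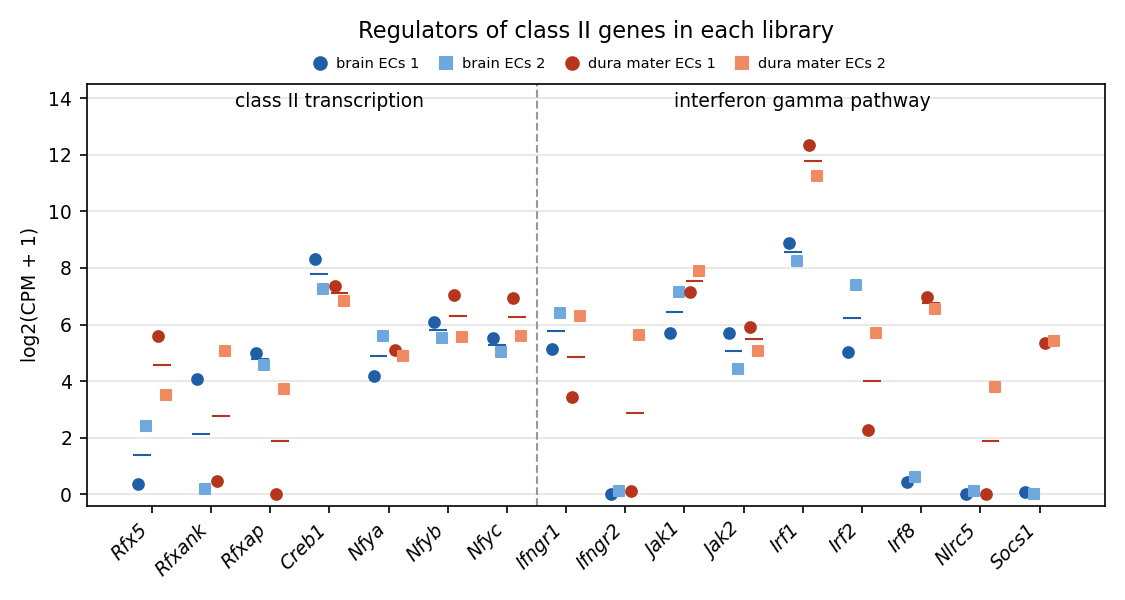
Level of the class II transcription factors (left of the dashed line) and of named interferon gamma pathway genes (right) in each library, as log2(CPM + 1), with 1 point per library and a short line at each tissue's mean. Irf1, Irf8 and Socs1 show both dura mater points clear of both brain points, while Rfxank, Ifngr2 and others are split between replicates of 1 tissue.

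Some of the genes that prepare class II peptides were counted in both tissues. The list held 9 genes, 6 tested, 3 positive and 3 negative, with a median of 0.28 and none passing. Ctss, the protease that trims the invariant chain in professional presenting cells, had 32, 74, 52 and 27 counts (log2 fold change -0.48, SE 2.48, adjusted p = 1.00). Ctsl, which can do so in other cells, had 2812, 1256, 3608 and 5231 (1.03, SE 0.55, adjusted p = 0.583). Ctsb had 260, 2612, 5667 and 5862 (1.86, SE 1.02, adjusted p = 0.606). Ctss was low in all libraries and did not separate the tissues. Ifi30, the thiol reductase of the endosome, had 3, 3, 3 and 326 counts and Lgmn 1, 1, 1 and 471, both above 3 counts in dura mater replicate 2 only.

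Costimulation, the second signal that a T cell needs, was read from 7 genes, 2 of them tested. Cd80, Cd86, Pdcd1lg2 and Tnfsf4 were at 0 in all libraries. Icosl, the ligand of ICOS that ECs can carry, had 0, 2, 228 and 129 counts (log2 fold change 5.87, SE 3.08, edgeR adjusted p = 0.577). Cd40 had 1, 442, 142 and 264, and the inhibitory ligand Cd274 had 4, 3, 6 and 132 counts. Cd80 and Cd86, the B7 ligands of professional presenting cells, were thus not counted in the dura mater libraries that held the class II counts. Whether their transcripts were absent or lost in the libraries was not tested.

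Markers of the cell types known for class II were read next to the class II counts. The pan-leukocyte list of 15 genes summed to 31.45 to 96.45 CPM in brain and 34.15 to 88.69 in dura mater, so the tissues overlapped. Within it Cd48 was at 0 in all libraries, Cd53 had 1, 3, 0 and 1 counts and Itgb2 2, 2, 1 and 2. Laptm5 (1377, 12, 204 and 133) and Lcp1 (1, 337, 8 and 1103) differed widely between replicates. Fermt3 (0, 1, 201 and 107) was higher in both dura mater libraries. The dendritic cell list of 10 genes summed to 99.48 and 3.70 CPM in brain and 10.5 and 22.7 in dura mater. Zbtb46 (1209, 35, 120 and 194 counts) was the largest part of this sum in every library, and Clec9a had 222, 0, 0 and 121. The sum thus rests mainly on 1 gene. Flt3, Cd209a and Siglech were at 0 in all libraries, and Itgax had 1 to 3 counts in each. Of 7 B cell markers 5 were at 0 in all, Ms4a1 among them, and the list summed to 1, 2, 9 and 10 counts. Of 8 T and NK cell markers 6 were at 0 in all, Cd3e, Cd3d and Cd3g among them, and the list had 49 counts in dura mater replicate 1 and 0 elsewhere. The granulocyte and mast cell list of 10 summed to 0.828 and 3.55 CPM in brain and 2.83 and 10.2 in dura mater.

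The macrophage and microglia list of 17 genes summed to 52.36 and 113.5 CPM in brain and 140.6 and 51.15 in dura mater, again overlapping. P2ry12 and Cd163 were at 0 in all libraries and Adgre1, which encodes F4/80, had 0, 5, 4 and 2 counts. Some members did follow the class II pattern. Cd68, a lysosomal protein of macrophages, had 4, 3, 550 and 441 counts, and Fcer1g, the Fc receptor gamma chain, had 6, 17, 610 and 173. Others did not, with Csf1r at 4, 646, 28 and 9 counts and C1qc at 0, 797, 291 and 2. The brain sums rest mainly on few genes. These were C1qa (30.1 CPM) and C1qb (19.9 CPM) in brain replicate 1, and C1qc (60.2 CPM) and Csf1r (48.8 CPM) in brain replicate 2. Neither Cd68 nor Fcer1g passed the edgeR test, and the part of macrophages in the class II counts was not tested.

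Markers of the EC gate and of dural stroma complete the comparison. The 12 endothelial genes summed to 8564 and 10190 CPM in brain and 8398 and 10750 in dura mater, with Pecam1, which encodes CD31, at 8390 to 23619 counts. Of them, the tight junction gene Cldn5 was lower in dura mater (edgeR adjusted p = 0.0388). The fibroblast list of 7 genes summed to 7.38 and 50.95 CPM in brain and 369.8 and 353.9 in dura mater, with Dcn at 16, 15, 1184 and 1664 counts, while Pdgfra had at most 1 count. The lymphatic endothelial list of 7 summed to 122.9 and 144.5 against 432.9 and 645.2 CPM, with Lyve1 (0, 0, 911 and 1776) and Ccl21a (0, 0, 883 and 3378). The sum of the 9 mural cell genes overlapped, at 620.9 and 1075 against 1134 and 679.4 CPM. Of these 9 genes 4 were higher in both dura mater libraries, without passing, where this held for 26.2% of all genes tested. Among the 4 were the channel subunit gene Kcnj8 (0, 0, 468 and 410 counts) and Cspg4 (0, 1, 263 and 65). Others overlapped, such as Rgs5 (11, 342, 2 and 179). The fibroblast and lymphatic sums were higher in both dura mater libraries, as the class II sum was. The part of fibroblasts, lymphatic ECs and mural cells in the class II counts was not tested. The erythroid list of 7 went the other way, at 18010 and 25690 CPM in brain against 1496 and 761.7 in dura mater. Of its 5 genes tested, 3 were called lower in edgeR, where 17 of all 9347 genes tested were called lower.

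**Figure D5:**
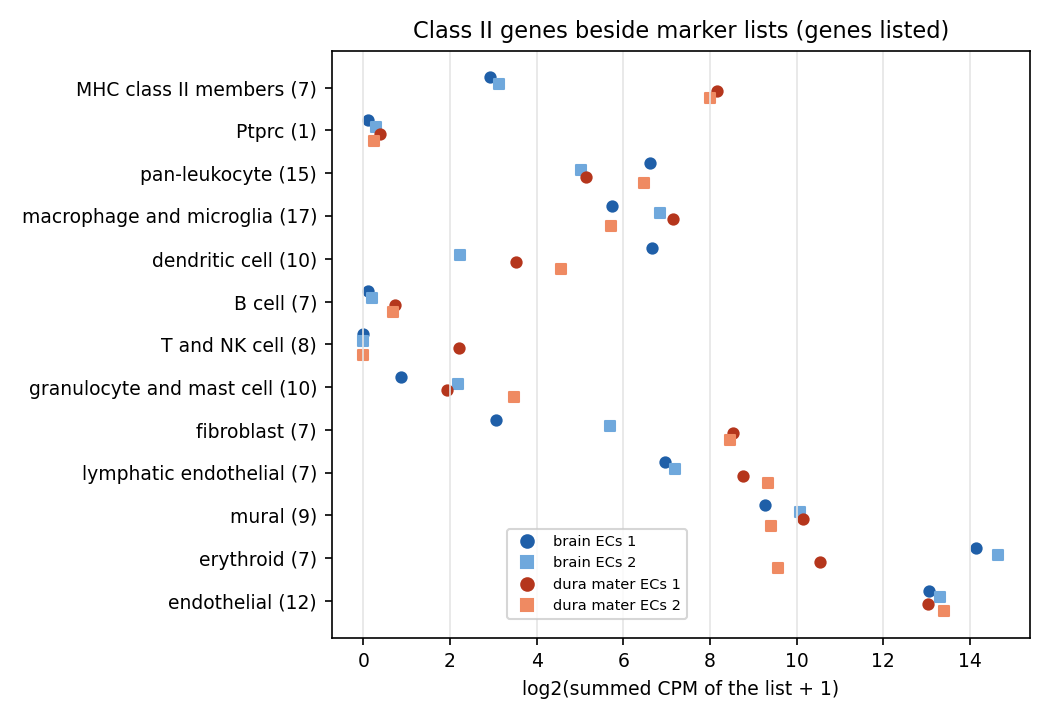
Summed level of the class II genes, Ptprc and each marker list in every library, as log2(summed CPM + 1), with the number of genes listed in parentheses and 1 point per library. The class II, fibroblast and lymphatic endothelial sums are separated between the tissues with dura mater higher, the erythroid sum is separated with dura mater lower, and the pan-leukocyte, macrophage and dendritic cell sums overlap.

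The 5 tested genes whose levels were most like those of Cd74, by Euclidean distance of log2(CPM + 1) over the 4 libraries, were H2-Aa (distance 0.572), Dcn (0.683), Col1a2 (0.743), Acvr1 (0.826) and Efnb2 (0.897). Dcn encodes the matrix proteoglycan decorin and Col1a2 a chain of type I collagen, Acvr1 is a BMP type I receptor and Efnb2 is the arterial ephrin ligand. Acvr1 had 1, 32, 882 and 1656 counts and Efnb2 0, 13, 815 and 1418. H2-Eb1 stood at rank 9 (1.02), H2-Ab1 at rank 150 (1.89) and H2-DMb1 at rank 880 (3.68). The nearest genes thus include 1 class II chain beside stromal and endothelial genes, and the distance covers 4 libraries only and depends on counts that were not divided by transcript length, so genes with fewer counts rank further off.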

How the data were processed

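RNA from sorted ECs (2 libraries a tissue) was sequenced with a kit labelled Lexogen Quant-Seq. The authors deposited 1 file of raw read counts per gene and library. Their processing notes name Bowtie2, edgeR and mm10, and the study's methods name TopHat and cufflinks. The counting step, annotation and use of strand are not given in the sources used here. Symbols listed more than once (35 symbols, 79 lines) included no class II gene.

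Counts were fitted in edgeR 4.0.16 (R 4.3.3) with filterByExpr, TMM scaling and the quasi-likelihood test by tissue, with a prior count of 2 for fold changes and p-values adjusted by Benjamini-Hochberg for 9347 genes (threshold 0.05). DESeq2 1.42.0 and limma 3.58.1 were alternatives. The code was tested on simulated data. Intervals are 95% Wilson or exact binomial. Positions are from GENCODE M21. Counts were not divided by length, so values of different genes are not on 1 scale, the distance to Cd74 included.

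The genes and lists were chosen with earlier results of these data known. Named were all 8 genes, genes of the pathway lists, of each marker list those called and at most 4 of highest mean CPM, and the 5 genes nearest to Cd74. Markers at or near 0, Fermt3, Fcer1g, Csf1r and others outside that rule were named after their values were seen. Listed genes that are not named are not reported here, and the lists' counts and sums include them.

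The deviations of same-numbered libraries had a correlation of -0.0153. Replicates of a tissue varied widely, so this value cannot show whether the libraries were paired.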

Additional observations from a re-analysis of the deposited data

How the results depend on the processing

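For the 5 class II genes tested, every fold change was positive in each alternative run. Both dura mater libraries stood far above both brain libraries for all 5, so the alternatives could not test the sign. None was called in edgeR, 3 were called by DESeq2, and leaving out 1 library called 0 to 1 of them. With the replicate block, which rests on the shared replicate numbers alone, none of the 5 was called. The count of called genes over all genes also depended on the processing. Against 57 in edgeR it was 810 by DESeq2 (620 higher, 190 lower), 80 by limma-voom (40 higher, 40 lower, 33 of them among the 57), 326 with no filter on low counts, 141 with at least 10 counts in every library (75 higher, 66 lower), 224 with the replicate block and 306 with the newer edgeR dispersion estimate. Leaving out 1 library gave 80 to 740 genes: 740 without brain replicate 1, 701 without brain replicate 2, 80 without dura mater replicate 1 and 97 without dura mater replicate 2. A lone remaining library is assumed there to vary like the other tissue. The cause of these shifts was not tested. Ciita, Ptprc and H2-DMa did not pass the filter on low counts and so were not in the main test.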

Other observations

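The genes that lie among the class II genes on chromosome 17 were read for comparison. Psmb8 and Psmb9, subunits of the immunoproteasome, had 1033, 1385, 1842 and 1839 counts and 710, 279, 595 and 619 counts in brain replicates 1 and 2 and dura mater replicates 1 and 2. Tap1, a chain of the peptide transporter for class I, had 956, 3, 1414 and 1020 counts, and its partner Tap2 had 1228, 133, 3248 and 5760 (log2 fold change 2.65, edgeR adjusted p = 0.466). Brd2, a bromodomain gene beside H2-DMa, had 1351, 1425, 8709 and 16223 counts (log2 fold change 3.03, edgeR adjusted p = 0.0508).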
